A study of Mus musculus with 5 samples.

Results

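Kupffer cells are the resident macrophages of the liver. They sit inside the sinusoids, the capillaries between plates of hepatocytes, where they take up bacteria, aged red cells, complement-coated particles and immune complexes from the passing blood. They depend on signaling through the CSF1 receptor and on signals from neighboring hepatocytes, stellate cells and endothelial cells, and they are set apart from macrophages of other organs by surface receptors such as CLEC4F, TIMD4, VSIG4 and MARCO. The 32 genes described here encode such identity receptors together with complement C1q, general macrophage proteins, Fc receptors and their adaptors, lysosomal proteases, a phagocyte oxidase subunit, receptors for dying cells and a few proteins of monocytes or activated cells. They were chosen by name, with earlier results of these data known. Each of the 32 matched 1 of the 23793 genes in the expression table, with *Emr1* as the older symbol of *Adgre1*.

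RNA was sequenced from whole livers of C57BL/6 mice at 12 weeks of age. The control group held 2 libraries of *Lifr* fl/fl mice, in which exon 4 of the leukemia inhibitory factor receptor gene is flanked by loxP sites in both copies. The knockout group held 3 libraries of mice that the labels call Lifrfl/fl;Crealb/alb (*Lifr* fl/fl;Alb-Cre), in which Cre under the albumin promoter removes that exon in hepatocytes, so that macrophages are not the cells in which Cre is driven. All 5 libraries carried the floxed alleles, none carried Cre alone, and an effect of Cre and an effect of losing *Lifr* therefore cannot be told apart. The paper describes the libraries as livers of different mice, so the spread within a group is that between mice.

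The values were FPKM, fragments counted relative to transcript length and to the size of the library, which give levels per length but not the reads behind them, so the depth is unknown and no counting interval is given. The comparison used limma on log2(FPKM + 0.1), a scale on which fold changes of low genes come out too small, over the 11687 genes whose 5 values averaged 0.5 FPKM or more. P-values were adjusted over all of these genes by the method of Benjamini and Hochberg, and an adjusted p under 0.05 was called a change. In either group, the values of a gene stood in ascending text order, so a column did not follow a library, and whether the highest values of different genes came from the same liver cannot be said. *Lifr* itself was at 132 and 151 FPKM in controls and at 32.8, 44.3 and 54.8 FPKM in knockout livers, a log2 fold change of -1.71 ± 0.19 (SE, adjusted p = 0.0045 from limma), and the call was lost without that filter (adjusted p = 0.062 from limma) and with a control value of each gene left out (adjusted p from 0.15 to 0.18 from limma). *Alb*, *Apoe* and *Trf*, abundant in any liver, were listed at 0 in all 5 values, so a 0 in this table can be a failed estimate.

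In these livers, transcripts of macrophages lay at somewhat higher levels in the knockout group, with a ratio of group means from 1.15 to 1.84 for all but *Marco*, at 3.05. Of the 32 members, 31 were tested, and all 31 had a log2 fold change above 0, where 54.9% of all genes tested did. Their median was 0.46, with a range from 0.19 for *Sirpa* to 1.15 for *Marco*, while the median of all genes tested was 0.025. A single member passed, *Ctsc*, which encodes the protease cathepsin C. Of all genes tested, 0.359% were higher and 0.205% were lower by the same threshold. Of the members, 22 had an unadjusted p under 0.05 in limma, all of them higher, where 6.08% of all genes tested were higher and 3.56% were lower by that measure. This number was 11 to 15 when a control value of each gene was left out. In 25 of the 31 every knockout value lay above both control values, which held for 15.1% of all genes tested. With 2 libraries against 3, an exact permutation test of a single value has 10 arrangements. Its one-sided p cannot go below 0.1, or 0.2 when doubled, so such a separation of the groups cannot pass it.

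**Figure D1:**
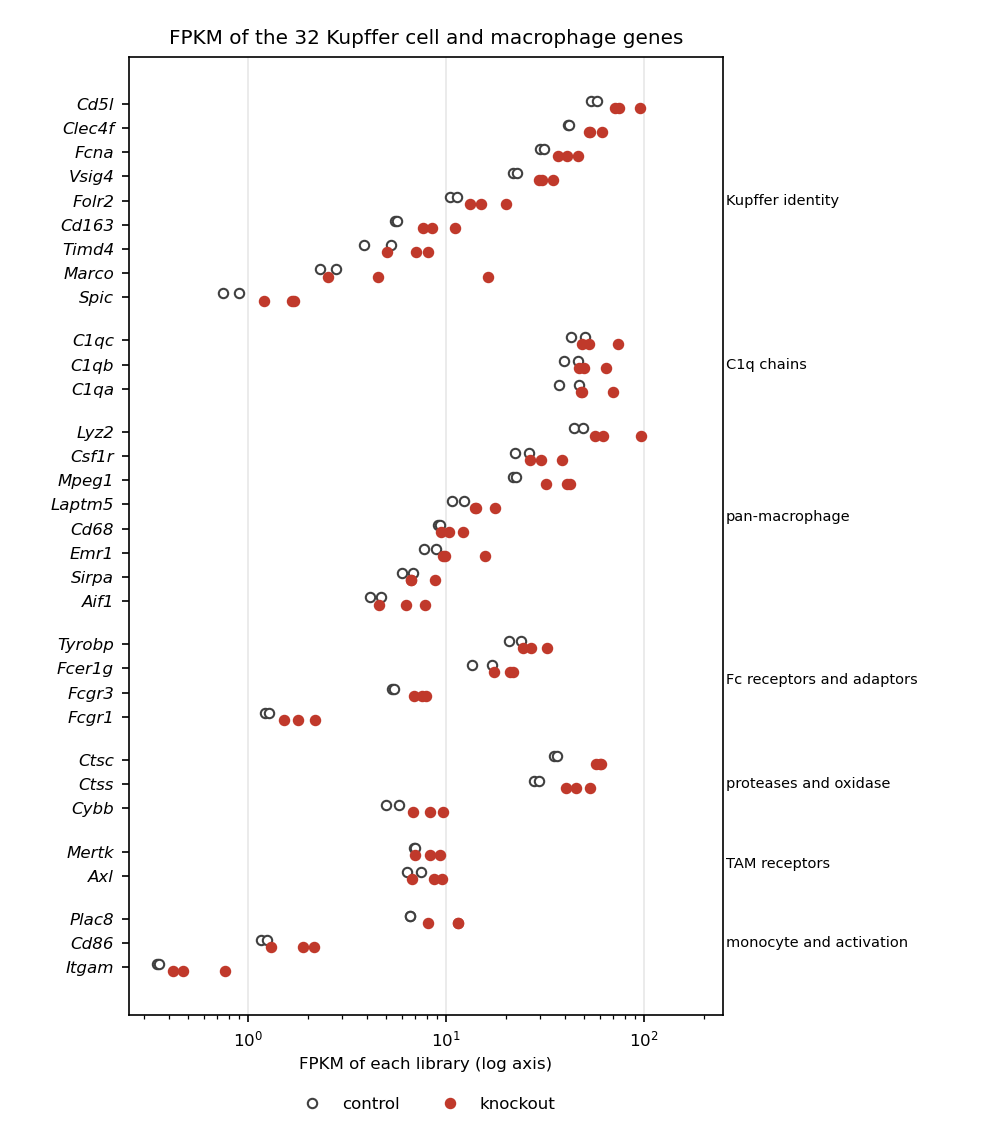
FPKM of each of the 32 members (log axis) in the 2 control libraries (open circles) and the 3 knockout libraries (filled circles), grouped by role and ordered by control level. Knockout values lie to the right of the control values by a small distance for most members, and *Marco* has 1 knockout value, 16.3 FPKM, far from the other 4.

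Because the order of the values hides the libraries, a sum over the members can only be bounded. Summed over all 32, the FPKM of a control library lay between 546 and 605, and that of a knockout library between 702 and 966, whichever values belonged together. The bounds do not overlap, so every knockout library had a higher summed level than either control library. In bulk tissue, more macrophages and more of these transcripts in each macrophage cannot be told apart. *Fcna*, *Laptm5*, *Cd163*, *Folr2*, *Csf1r* and *Cybb* overlap annotated non-coding genes, and the sources used here do not say whether strand was used in counting, so reads of such partners cannot be separated from them.

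Among the 9 identity genes of Kupffer cells, none passed in limma, and all 9 lay above 0 with a median log2 fold change of 0.54. *Cd5l*, which encodes a scavenger-like protein that macrophages secrete, had the highest control level of the group. It was at 54.2 and 58.1 FPKM in controls and at 71.8, 74.5 and 95.7 FPKM in knockout livers (log2 fold change 0.51 ± 0.15, SE, adjusted p = 0.23 from limma). *Clec4f*, a lectin receptor that in the mouse marks Kupffer cells, was at 41.6 and 41.8 FPKM and at 52.6, 53.4 and 61.7 FPKM. Its groups were apart by 1.26-fold between the nearest values, and its log2 fold change was 0.42 ± 0.12 (SE, adjusted p = 0.25 from limma). *Vsig4*, the receptor by which Kupffer cells bind complement C3 fragments, was at 21.7 and 22.8 FPKM and at 29.5, 30.6 and 34.7 FPKM. These 3 genes together show what was usual in the group, control values close to each other and all knockout values above them, with no call over all genes.

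*Cd163*, the scavenger receptor for hemoglobin bound to haptoglobin, was at 5.53 and 5.66 FPKM in controls and at 7.71, 8.48 and 11.1 FPKM in knockout livers, a log2 fold change of 0.67 ± 0.16 (SE, adjusted p = 0.16 from limma). *Spic*, a transcription factor gene of macrophages that recycle iron from red cells, was low in every library, at 0.750 and 0.906 FPKM and at 1.21, 1.67 and 1.70 FPKM. Its log2 fold change of 0.80 had a 95% interval from 0.32 to 1.28 and depended on the pseudocount, being 0.46 at 1 FPKM. *Folr2*, a folate receptor gene of resident macrophages, went from 10.5 and 11.4 FPKM to 13.3, 15.1 and 20.1 FPKM. *Fcna*, which encodes ficolin A, a secreted lectin of the complement system, went from 29.7 and 31.2 FPKM to 36.8, 40.9 and 46.5 FPKM. None of these 4 passed, and in each every knockout value lay above both control values, as in 15.1% of all genes tested.

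The other 2 identity genes overlapped between the groups. *Timd4*, a receptor for phosphatidylserine on dying cells that marks long-resident Kupffer cells, was at 3.86 and 5.28 FPKM in controls and at 5.01, 7.02 and 8.14 FPKM in knockout livers, a log2 fold change of 0.54 that was 0.32 without the lower control value. *Marco*, a scavenger receptor for bacteria and particles, was at 2.32 and 2.79 FPKM in controls and at 2.53, 4.56 and 16.3 FPKM in knockout livers. The lowest of its knockout values lay between the controls, and the highest was 6.42 times the lowest. Its log2 fold change of 1.15 had a 95% interval from -0.14 to 2.44 and was 0.41 without that highest value.

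The 32 genes lie on 14 chromosomes, and the 3 chains of C1q are encoded side by side on chromosome 4, in a span of 18719 bases (mm10: *C1qb* at chr4:136880126-136886200, *C1qc* at chr4:136889801-136892936 and *C1qa* at chr4:136895916-136898844). C1q starts the classical complement pathway, and macrophages are its main source in most tissues. *C1qa* was at 37.2 and 46.8 FPKM in controls and at 48.3, 48.7 and 69.6 FPKM in knockout livers. *C1qb* was at 39.6 and 46.3 FPKM and at 47.1, 49.7 and 64.7 FPKM. *C1qc* was at 42.6 and 50.4 FPKM and at 48.8, 52.7 and 74.4 FPKM. For each chain, 2 knockout values lay close to the higher control value and 1 lay well above it, and for *C1qc* the groups overlapped. The log2 fold changes were 0.39, 0.31 and 0.31, each with a 95% interval that includes 0, and without the highest knockout value of each gene they were 0.22, 0.18 and 0.13. Without the lower control value they were 0.22, 0.20 and 0.19.

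Among the 8 general macrophage genes, none passed and the median log2 fold change was 0.43. *Mpeg1*, which encodes perforin-2, a pore-forming protein that attacks engulfed bacteria (chr19:12460770-12465285), came closest. It was at 21.8 and 22.5 FPKM in controls and at 32.1, 41.0 and 42.6 FPKM in knockout livers, with a log2 fold change of 0.79 ± 0.14 (SE) and an adjusted p of 0.052 from limma. The lowest knockout value was 1.42 times the higher control value. *Lyz2*, which encodes the lysozyme of macrophages and neutrophils, was at 44.6 and 49.0 FPKM and at 56.4, 62.0 and 96.3 FPKM, a log2 fold change of 0.57 ± 0.20 (SE, adjusted p = 0.40 from limma). Its highest knockout value was the highest of any member, and without it the log2 fold change was 0.34. *Lyz1*, its near-identical neighbor and named for that, was at 2.60 and 2.65 FPKM and at 2.56, 3.29 and 5.04 FPKM. Reads that fit both genes of the pair may be lost, as the authors kept uniquely mapped reads.

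*Csf1r*, the receptor for the growth factors on which Kupffer cells depend, was at 22.3 and 26.3 FPKM in controls and at 26.6, 30.1 and 38.4 FPKM in knockout livers. *Emr1*, the gene of the surface antigen by which mouse macrophages are most often stained, was at 7.72 and 8.88 FPKM and at 9.66, 9.91 and 15.7 FPKM. In both genes the lowest knockout value was within 1.09-fold of the higher control value, and the log2 fold changes were 0.37 and 0.46, or 0.22 and 0.24 without the highest knockout value. *Laptm5*, which encodes a lysosomal membrane protein of blood cells, was at 10.7 and 12.4 FPKM and at 14.0, 14.2 and 17.8 FPKM.

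The other 3 general genes overlapped or nearly so. *Aif1*, which encodes an actin-binding protein of macrophages and microglia, overlapped, at 4.14 and 4.72 FPKM against 4.61, 6.26 and 7.85 FPKM. *Cd68*, a lysosomal membrane glycoprotein gene and common tissue stain for macrophages, was at 9.10 and 9.38 FPKM and at 9.40, 10.4 and 12.2 FPKM. *Sirpa*, the receptor for the signal CD47 that holds back engulfment, was at 5.99 and 6.81 FPKM and at 6.66, 6.70 and 8.79 FPKM. The log2 fold changes of *Cd68* and *Sirpa* were 0.20 and 0.19, with 95% intervals from -0.11 to 0.51 and from -0.15 to 0.54. Without the highest knockout value of each, the log2 fold changes of *Aif1*, *Cd68* and *Sirpa* were 0.28, 0.097 and 0.063, against 0.46, 0.20 and 0.19 with it.

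**Figure D2:**
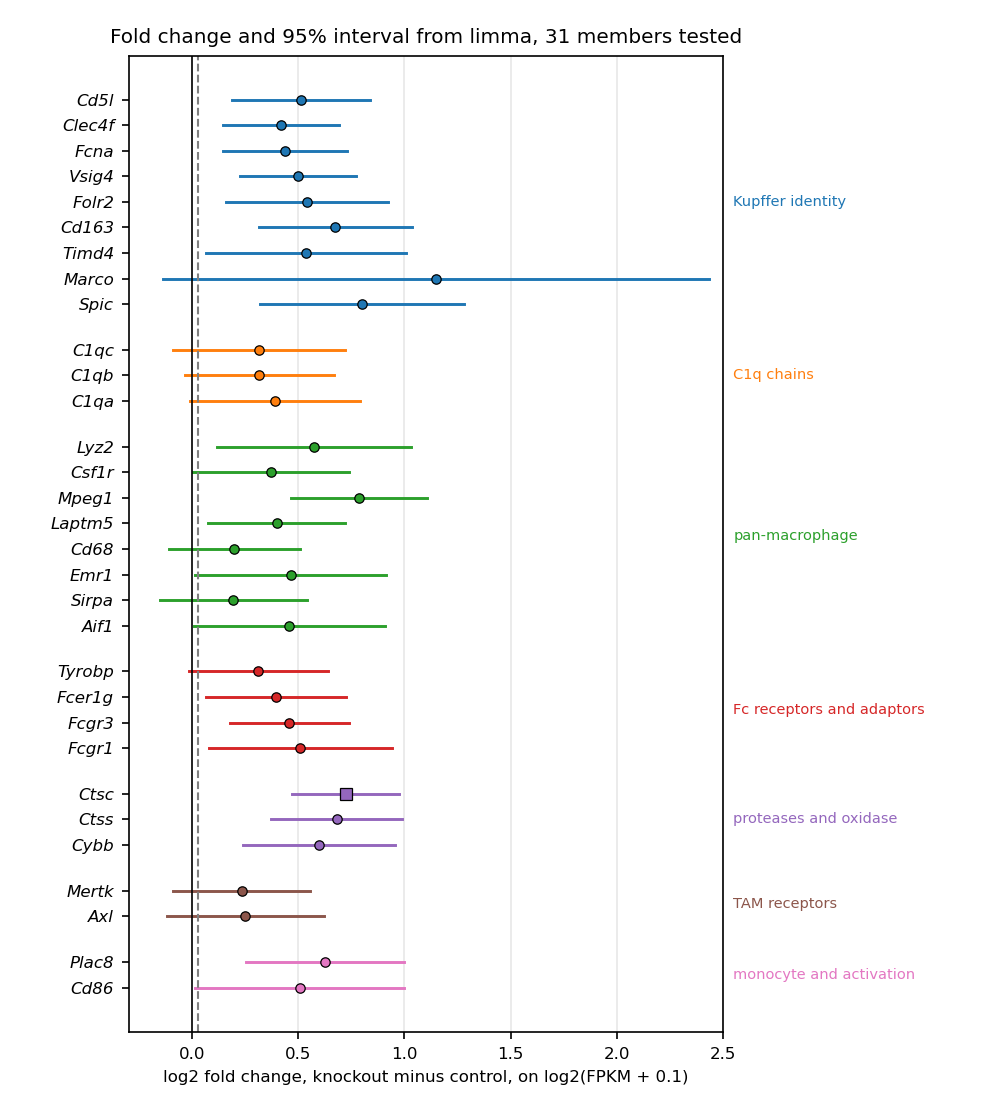
Log2 fold change (knockout minus control, on log2(FPKM + 0.1)) of the 31 members tested, with 95% intervals from limma and colored by role. The square marks *Ctsc*, the member that passed, the dashed line is the median of all genes tested (0.025), and every point lies to the right of 0 while 9 of the 31 intervals include it.

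Fc receptors bind the constant part of antibodies, and their adaptors carry the signal inward. All 4 members of this kind had every knockout value above both control values, which held for 15.1% of all genes tested. None passed, and their median log2 fold change was 0.43. *Fcgr1*, the high-affinity IgG receptor, was at 1.22 and 1.27 FPKM in controls and at 1.53, 1.8 and 2.19 FPKM in knockout livers. *Fcgr3*, a low-affinity IgG receptor (chr1:171051169-171065915), was at 5.36 and 5.47 FPKM and at 6.91, 7.59 and 7.95 FPKM. *Fcer1g*, the adaptor chain with which both of these receptors signal (chr1:171229572-171234349), was at 13.6 and 17 FPKM and at 17.5, 21.0 and 21.8 FPKM. *Tyrobp*, an adaptor of other activating receptors of myeloid cells, was at 20.8 and 24.0 FPKM and at 24.5, 26.7 and 32.5 FPKM. The 2 receptors were apart by 1.20-fold and 1.26-fold between their nearest values, the 2 adaptors by 1.03-fold and 1.02-fold. The log2 fold change of *Fcgr1*, 0.51, was 0.33 at a pseudocount of 1 FPKM, and that of *Fcer1g*, 0.39, was 0.24 without the lower control value.

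The proteases and the oxidase subunit had the highest median of the roles with more than 2 members, 0.68. *Ctsc*, which encodes cathepsin C, a lysosomal peptidase that activates the serine proteases of immune cells (chr7:88278024-88315861), rose from 35.2 and 36.3 FPKM to 57.0, 59.7 and 60.5 FPKM. The log2 fold change was 0.72 ± 0.11 (SE, adjusted p = 0.026 from limma), with a 95% interval from 0.47 to 0.97. It had the narrowest spread of any member among knockout libraries, the highest value being 1.06 times the lowest, and its groups were 1.57-fold apart at their nearest values. Hepatocytes and other cells also express *Ctsc*, so it is no marker of macrophages alone. Its call was lost when no filter on low values was used (adjusted p = 0.062 from limma), when the variance was not modeled as a trend (adjusted p = 0.078 from limma), and when a control value was left out (adjusted p from 0.29 to 0.32 from limma in 5 draws) or, in 1 of 5 draws, a knockout value (adjusted p = 0.060 from limma).

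*Ctss*, which encodes cathepsin S, the protease that trims the invariant chain of MHC class II in antigen-presenting cells (chr3:95526786-95556405), was at 28.0 and 29.5 FPKM in controls and at 40.4, 45.6 and 53.3 FPKM in knockout livers. Its log2 fold change of 0.68 ± 0.14 (SE) did not pass (adjusted p = 0.082 from limma), although all knockout values were well above both controls. *Cybb*, which encodes the catalytic subunit of the phagocyte NADPH oxidase, was at 4.98 and 5.82 FPKM and at 6.86, 8.32 and 9.62 FPKM, a log2 fold change of 0.60 ± 0.16 (SE, adjusted p = 0.21 from limma).

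The regions before *Ctsc*, *Mpeg1* and *Ctss*, the 3 members with the smallest adjusted p, and before *C1qc* are shown because PU.1, the master transcription factor of macrophages, binds purine-rich sites with a GGAA core. Each window runs from 250 bases before to 50 bases after a start of the gene in RefSeq (GRCm38.p6; for *Ctsc* and *C1qc* not the outermost base of the gene), 5′ to 3′ on the strand of the gene, and capitals mark GAGGAAGT or its reverse complement ACTTCCTC.
Ctsc, chr7:88277835-88278134, plus strand: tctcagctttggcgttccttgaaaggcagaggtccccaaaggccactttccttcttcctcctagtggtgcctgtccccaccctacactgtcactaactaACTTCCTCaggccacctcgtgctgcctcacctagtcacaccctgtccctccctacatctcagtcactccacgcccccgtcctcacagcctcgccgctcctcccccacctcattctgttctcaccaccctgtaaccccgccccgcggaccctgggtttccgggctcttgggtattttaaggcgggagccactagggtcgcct
Mpeg1, chr19:12460520-12460819, plus strand: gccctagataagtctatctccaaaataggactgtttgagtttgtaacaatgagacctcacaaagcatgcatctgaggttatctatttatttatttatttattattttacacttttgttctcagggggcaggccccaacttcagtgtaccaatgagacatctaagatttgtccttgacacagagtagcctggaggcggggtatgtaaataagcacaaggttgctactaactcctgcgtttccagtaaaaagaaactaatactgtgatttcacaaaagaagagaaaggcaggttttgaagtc
Ctss, chr3:95526536-95526835, plus strand: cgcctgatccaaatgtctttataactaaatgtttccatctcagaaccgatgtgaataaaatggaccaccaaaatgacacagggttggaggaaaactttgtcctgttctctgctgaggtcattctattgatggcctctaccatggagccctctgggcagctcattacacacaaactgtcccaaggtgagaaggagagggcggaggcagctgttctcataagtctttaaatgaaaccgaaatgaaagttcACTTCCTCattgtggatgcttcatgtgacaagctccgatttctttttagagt
C1qc, chr4:136892865-136893164, minus strand: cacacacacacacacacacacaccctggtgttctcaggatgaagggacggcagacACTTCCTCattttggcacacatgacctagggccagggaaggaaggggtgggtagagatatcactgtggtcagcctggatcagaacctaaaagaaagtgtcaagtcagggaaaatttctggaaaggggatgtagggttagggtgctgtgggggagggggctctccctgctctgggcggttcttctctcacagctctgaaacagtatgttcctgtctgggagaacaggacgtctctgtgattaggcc

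The match began 151 bases before the start of *Ctsc*, 2 bases before that of *Ctss* and 195 bases before that of *C1qc*. Each match was on the minus strand relative to the gene. The *Mpeg1* window held no GAGGAAGT on either strand, but it does hold the shorter core GGAA, as its reverse complement TTCC. That core was not counted over the windows. GAGGAAGT, on either strand, was in 3 of 29 windows of members and in 3.20% of 32851 promoter windows of the same length. Its 6-base part GGAAGT, on either strand, was in 14 of the 29 and in 23.8% of all. The 3 windows of members with GAGGAAGT are all among those shown, and *C1qc* was not chosen by its adjusted p. Both strings were picked with their counts in view, and a match is a run of letters and not a bound site. Of the 32 members, 26 had a window, with *Fcgr3*, *Folr2* and *Plac8* having 2 each.

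*Axl* and *Mertk* encode receptor kinases of the TAM family, which recognize dying cells through bridging proteins. They had the lowest median of the roles, 0.24, and neither passed. *Mertk* was at 6.88 and 7.02 FPKM in controls and at 7.02, 8.34 and 9.34 FPKM in knockout livers, so that its groups touched. *Axl* overlapped, at 6.40 and 7.48 FPKM against 6.72, 8.71 and 9.58 FPKM. Their 95% intervals ran from -0.090 to 0.55 and from -0.12 to 0.62, and without the highest knockout value both had a log2 fold change of 0.14, where *Mertk* had 0.23 and *Axl* 0.25 with it.

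Of the 3 genes of monocytes and activation, *Plac8*, expressed by monocytes and other blood cells, was at 6.58 and 6.62 FPKM in controls and at 8.09, 11.5 and 11.6 FPKM in knockout livers (log2 fold change 0.63 ± 0.17, SE, adjusted p = 0.20 from limma). *Cd86*, the costimulatory ligand that antigen-presenting cells show to T cells, was at 1.16 and 1.24 FPKM and at 1.31, 1.89 and 2.15 FPKM, a log2 fold change of 0.51, or 0.33 at a pseudocount of 1 FPKM. *Itgam*, the CD11b integrin chain that is high on monocytes and neutrophils and low on Kupffer cells, was under the filter and not tested. It was at 0.346 and 0.358 FPKM in controls and at 0.418, 0.471 and 0.763 FPKM in knockout livers, all above both controls.

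The members differed in how far apart libraries of 1 group lay. Among knockout libraries the highest value was 1.06 to 6.42 times the lowest, with *Marco* at the top, *Itgam* next at 1.83 and a median of 1.41. Among control libraries this ratio ran from 1.004 for *Clec4f* to 1.37 for *Timd4*, with a median of 1.09. A ratio of 3 values is larger than that of 2 by construction, and over all genes tested the medians were 1.23 and 1.13. The ratio was wider in knockout than in control libraries for 31 of the 32 members, all but *Fcer1g*, and for 71.6% of the genes tested that were above 0 in every library. The differences between members were not tested, because values of 2 genes cannot be matched to a library.

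**Figure D3:**
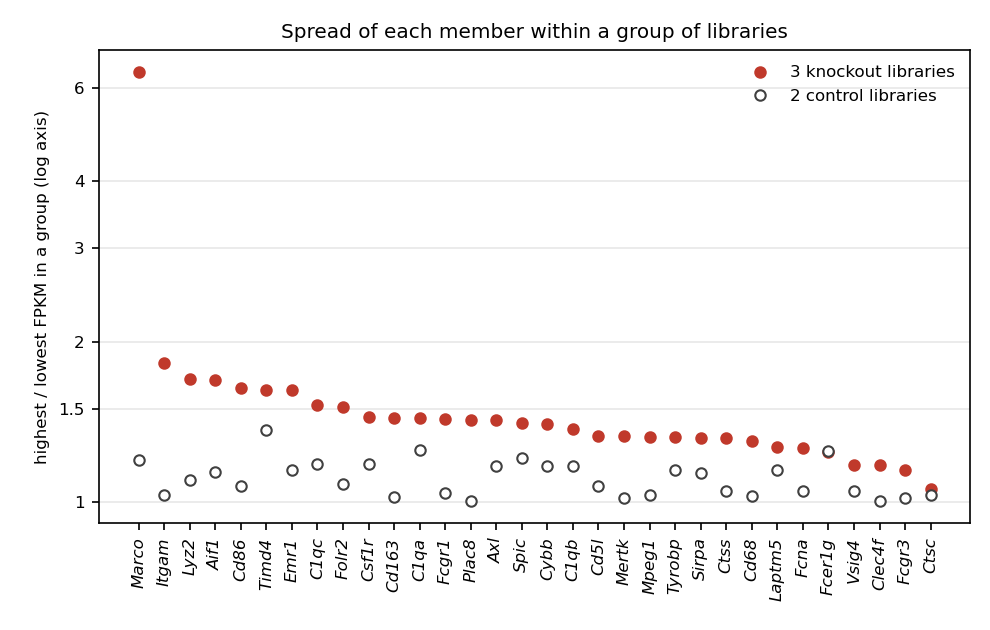
Ratio of the highest to the lowest FPKM (log axis) within the 3 knockout libraries (filled) and within the 2 control libraries (open) for each of the 32 members, ordered by the knockout ratio. *Marco* stands at 6.42 and *Ctsc* at 1.06, and the control ratios stay at or below 1.37.

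Genes of related processes were taken as further lists, written from general knowledge of each process with earlier results of these data known. Of 12 other genes of Kupffer cells, 11 were tested, all 11 lay above 0 with a median of 0.31, and none passed. *C6*, a complement component, was at 124 and 141 FPKM in controls and at 161, 188 and 189 FPKM in knockout livers, a log2 fold change of 0.44, while *Slc40a1*, the iron exporter ferroportin, overlapped with a log2 fold change of 0.10. Both are also expressed by hepatocytes or other cells.

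Of 12 genes of Fc receptor signaling, 11 lay above 0 with a median of 0.33, and *Fcgr4* passed. This activating IgG receptor, which signals through the chain encoded by *Fcer1g*, rose from 4.45 and 4.81 FPKM to 7.19, 8.18 and 8.65 FPKM (log2 fold change 0.77 ± 0.13, SE, adjusted p = 0.040 from limma), and lost its call under 12 of 17 alternative settings (adjusted p from 0.053 to 0.51 from limma in these). *Fcgr4* and *Fcgr3* lie together on chromosome 1 and are alike in sequence. The authors kept uniquely mapped reads, so reads that fit both genes may be lost. *Hcst*, an adaptor related in function to *Tyrobp* and named after its values were seen, was at 0.623 and 0.716 FPKM and at 1.29, 1.49 and 1.86 FPKM (adjusted p = 0.072 from limma). Of 5 other subunits of the NADPH oxidase, all lay above 0 with a median of 0.33 and none passed. *Cyba*, the membrane partner of the *Cybb* product, had a log2 fold change of 0.071, and *Rac2*, the GTPase that switches the complex on, had one of 0.39.

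Other lists lay nearer to the median of all genes, apart from that of cytokines and activation genes. The 11 tested of 12 macrophage transcription factors had a median of 0.015, with 6 above and 5 below 0 and none past the threshold. *Cebpb* and *Nr1h3*, which encodes the oxysterol receptor LXRα, had log2 fold changes of -0.23 and -0.030, and both overlapped. Many of these factors are active in hepatocytes too. The 7 tested of 8 growth factors and niche signals had a median of 0.14. *Csf1*, a ligand of the *Csf1r* product, was at 2.65 and 2.87 FPKM and at 2.91, 3.83 and 4.17 FPKM, which is 0.37 on the log2 scale and no call (adjusted p = 0.54 from limma), and *Tgfb1* had one of -0.23.

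The 16 lysosomal genes had a median of 0.14, with 12 above 0 and none past the threshold. *Lamp1* and *Lamp2*, membrane proteins of the lysosome, had log2 fold changes of 0.15 and 0.19. Of 10 bridging and scavenger genes tested, 8 lay above 0 with a median of 0.17, and *Lrp1* and *Scarb1*, both abundant in hepatocytes, had log2 fold changes of 0.11 and 0.24. *Pros1*, a bridging ligand of the TAM receptors named after its values were seen, was at 22.2 and 27.3 FPKM and at 36.5, 37.6 and 40.3 FPKM (log2 fold change 0.63, adjusted p = 0.087 from limma). Of 13 cytokines and activation genes only 4 reached the filter. These had a median of 0.32 with 3 above 0, and none passed the threshold. On the log2 scale *Il18* was at 0.10 and *Cxcl10* at -0.32. The 6 tested of 9 genes of lipid-associated macrophages had a median of 0.071, with *Fabp5* at -0.094 and *Spp1* at 0.22.

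**Figure D4:**
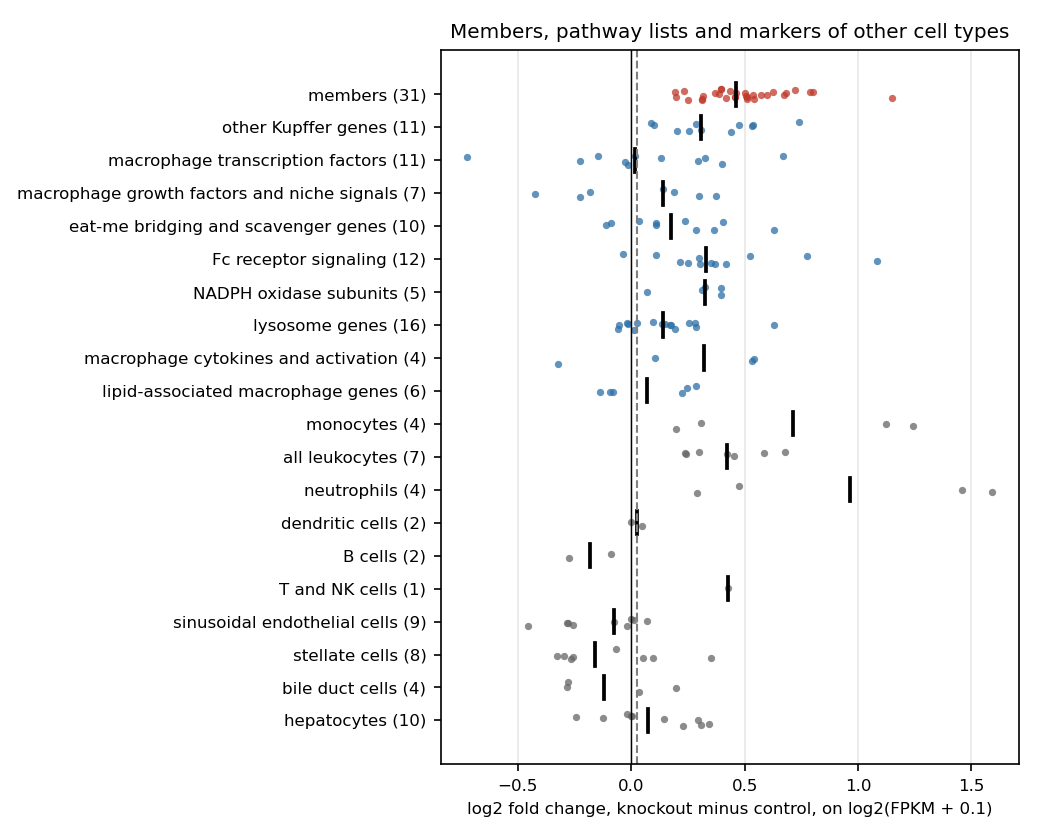
Log2 fold changes (knockout minus control, on log2(FPKM + 0.1)) of the tested genes of each list, with the number tested in brackets, the list median as a black bar and the median of all genes tested as a dashed line. Members are at the top, then related pathways, then markers of other cell types, and the lists of monocytes, leukocytes and neutrophils share the members' side of 0 while those of endothelial, stellate and bile duct cells center below it.

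The lists of neutrophils, monocytes and genes shared by leukocytes lay on the same side of 0 as the members, that of dendritic cells lay near 0 and that of B cells below it, and their part in the result was not tested. Of 10 neutrophil markers, the 4 that reached the filter had a median of 0.97. *S100a9*, a calcium-binding protein gene of neutrophils and monocytes, rose from 0.850 and 1.30 FPKM to 2.69, 3.54 and 4.04 FPKM (log2 fold change 1.59 ± 0.22, SE, adjusted p = 0.018 from limma), a call lost without the filter or with a control value left out (adjusted p from 0.095 to 0.34 from limma). Its partner *S100a8*, named after its values were seen, was at 1.03 and 1.91 FPKM and at 3.06, 3.98 and 5.36 FPKM (adjusted p = 0.059 from limma). Summed over the 10, the level of a control library lay between 3.36 and 5.07 FPKM and that of a knockout library between 7.44 and 12.8 FPKM. Most of these sums came from *S100a8* and *S100a9*, so the separate bounds cannot be read as a result for all 10 markers. *Csf3r* and *Retnlg*, the others tested and named after their values were seen, had log2 fold changes of 0.48 and 0.29 and did not pass. *Retnlg* overlapped between the groups. The granule genes *Ngp* and *Camp*, which mark immature neutrophils and are named after their values were seen, were listed at 0 in both controls and reached at most 0.156 and 0.113 FPKM in knockout livers. The 4 tested of 8 monocyte markers had a median of 0.71 and none passed. *Ly6c2* was at 0.429 and 0.671 FPKM and at 1.02, 1.32 and 1.60 FPKM, and *S100a4* had a log2 fold change of 0.20. Another 4 are named after their values were seen. *Ly6c1*, an antigen gene close in sequence to *Ly6c2*, was at 0.241 and 0.267 FPKM and at 0.441, 0.896 and 0.990 FPKM (log2 fold change 1.24, adjusted p = 0.21 from limma). *F13a1* was higher in every knockout library, at no more than 0.158 FPKM, and *Cx3cr1* was lower, at 0.237 and 0.268 FPKM against 0.185, 0.210 and 0.226 FPKM. The chemokine receptor gene *Ccr2* overlapped, at 0.412 and 0.426 FPKM and at 0.346, 0.394 and 0.821 FPKM, and these last 3 were under the filter. Summed over the 8, a control library lay between 2.27 and 2.92 FPKM and a knockout library between 2.77 and 5.66 FPKM, so these bounds overlap. A low gene that is higher in knockout livers reaches the filter more easily, so medians of such part lists may be too high.

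All 7 genes shared by leukocytes lay above 0 with a median of 0.42, and none passed. *Lcp1*, an actin bundler of blood cells, was at 30.8 and 36.3 FPKM and at 38.8, 39.4 and 40.3 FPKM, and *Cd52* overlapped with a log2 fold change of 0.42. Their summed level lay between 57.7 and 67.0 FPKM in a control library and between 70.0 and 84.7 FPKM in a knockout library. Macrophages express these genes as well. The lymphocyte and dendritic cell lists were mostly under the filter, with 2 of 6 genes tested for B cells (*Cd79a* at -0.28 and *Cd79b* at -0.088), 1 of 8 for T and NK cells (*Nkg7* at 0.43) and 2 of 7 for dendritic cells (*Zbtb46* at 0.0010 and *Clec9a* at 0.047), all as log2 fold changes and none past the threshold. Summed levels lay between 2.18 and 2.95 FPKM in a control library and between 1.99 and 3.10 FPKM in a knockout library for B cells, between 2.01 and 2.79 and between 2.31 and 5.27 FPKM for T and NK cells, and between 2.89 and 3.45 and between 2.60 and 3.55 FPKM for dendritic cells.

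The lists of other liver cells had medians between -0.16 and 0.073. The 9 markers of sinusoidal endothelial cells had a median of -0.077 (*Clec4g* at -0.077 and *Eng* at -0.28), the 8 of stellate cells one of -0.16 (*Dcn* at 0.35 and *Reln* at 0.094), the 4 tested of 6 of bile duct cells one of -0.12 (*Sox9* at 0.20) and the 10 of hepatocytes one of 0.073 (*Apoa1* at -0.12 and *Ttr* at -0.24), with none past the threshold in any of the 4. Above 0 lay 3 of the 9 endothelial, 3 of the 8 stellate, 2 of the 4 bile duct and 7 of the 10 hepatocyte genes. Of all genes tested, 54.9% did. The genes named were chosen by their mean FPKM and do not stand for the direction of their lists. *Dcn* made up most of the stellate sum, at 46.5 and 61.1 FPKM in controls and at 59.5, 63.1 and 83.7 FPKM in knockout livers. Summed levels of the groups overlapped for all 4 lists. They lay between 127 and 139 FPKM in a control library and between 96.7 and 143 FPKM in a knockout library for endothelial cells, between 68.3 and 88.4 and between 78.3 and 111 FPKM for stellate cells, between 9.82 and 11.2 and between 8.67 and 9.94 FPKM for bile duct cells, and between 19225 and 21900 and between 17978 and 24780 FPKM for hepatocytes.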

How the data were processed

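RNA of 5 mouse livers was sequenced, and the paper describes this as mRNA sequencing. Per the submitters' processing notes and methods, the authors checked reads with FastQC 0.11.5, aligned them with TopHat2 2.1.1 to mm10, kept uniquely mapped reads with SAMtools 1.5 and estimated expression with Cufflinks 2.2.1 on RefSeq genes. The authors deposited FPKM per gene, with columns of fold changes and p-values of their own comparison, which were not used. FPKM keep no read counts, so the precision that depth gives is unknown. Groups were taken from the genotype label.

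The values were transformed to log2(FPKM + 0.1), and the 11687 of 23793 genes averaging 0.5 FPKM or more over the 5 values were fitted in limma 3.58.1 (R 4.3.3; lmFit and eBayes with a trend), as knockout minus control, with Benjamini-Hochberg adjustment at 0.05. The script was tested on simulated data. The deposited values of each gene stood in ascending text order within a group, in 16564 of 16564 genes with distinct control values and 15778 of 15778 with distinct knockout values, so a column holds no library. Leave-one-out was therefore run as 5 draws per group, in which 1 value of each gene was left out at random. The alternatives were pseudocounts of 1 and 0.01 FPKM, no filter, a minimum of 1 FPKM, no trend, a threshold of 0.1, groups centered on their medians and, added after seeing the data, fold changes without the highest knockout value of each gene.

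The members and lists were chosen with earlier results of these data known. All members are given. Of each other list the genes past the threshold are named, or else the 2 with the highest mean FPKM in lists without such genes, and other genes are said to be named after their values were seen, except *Lifr*, *Lyz1* as a near copy of a member, and *Alb*, *Apoe* and *Trf* as genes listed at 0. A gene that this rule names is not reported here. Positions and promoter sequences came from RefSeq on GRCm38.p6, in which all 32 members were found.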

Additional observations from a re-analysis of the deposited data

How the results depend on the processing

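All 31 members tested (32 where *Itgam* reached the filter) lay above 0 under every alternative listed, with medians from 0.41 to 0.49, and 0.35 without the highest knockout value of each gene, where the median of all genes was -0.044. The filter, minimum, trend and threshold leave the fold change of a gene as it was. Where every knockout value lay above both control values, leaving a value out or changing the pseudocount cannot turn the sign. Most of these alternatives thus could not change the direction of most members. The number of members past the threshold, 1, became 2 at a pseudocount of 0.01 FPKM or a minimum of 1 FPKM (*Ctsc* and *Mpeg1*), 3 at an adjusted p under 0.1 (with *Ctss*), and 0 without a filter (17270 genes tested) or without a trend, and it ran from 0 to 3 when 1 value of each gene was left out, where *Plac8* also passed in 2 draws. For the same settings the members lower in knockout stayed at 0. The members with every knockout value above both control values, 25, became 21 with centered groups, where this held for 12.3% of all genes tested. All genes higher and lower, 42 and 24, became 11 and 5 without a filter, 21 and 11 without a trend, 68 and 41 at 0.1, and ran from 6 to 72 and from 7 to 47 in leave-one-out draws, the low ends being draws that left 1 control value, which is then assumed to vary as the knockout values do. Of the other lists, 2 genes were higher, 1 at a pseudocount of 1 FPKM or without a trend, 0 without a filter, 6 at 0.1 and 0 to 4 in leave-one-out draws. *Zbtb46*, at 0.0010 on the log2 scale, turned to -0.0011 at a pseudocount of 0.01 FPKM and -0.025 with centered groups. Uncalled genes whose log2 fold change turned sign in leave-one-out draws were *Zbtb46* (-0.11 to 0.050), *Slc40a1* (-0.057 to 0.26), *Nr1h3* (-0.11 to 0.052), *S100a4* (-0.078 to 0.65), *Cd79b* (-0.28 to 0.11), *Reln* (-0.076 to 0.29), *Cxcl10* (-0.44 to 0.28), *Fabp5* (-0.23 to 0.15), *Clec4g* (-0.14 to 0.020), *Cyba* (-0.078 to 0.22), *Il18* (-0.033 to 0.24), *Clec9a* (-0.085 to 0.18), *Sox9* (-0.051 to 0.45), *Cebpb* (-0.71 to 0.25) and *Lrp1* (-0.030 to 0.26). No paired analysis was possible because the values of each gene are sorted within a group, so no value carries a replicate number. Depth is unknown, and 2 controls leave the spread poorly known.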
